A study of Mus musculus with 12 samples.

Results

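Nxpe4, Rnf26, Clmp, Ubash3b, Nectin1 and Dscaml1 are 6 genes of mouse chromosome 9 that were listed as neighbours whose levels differ between an Fmr1 knockout line and FVB mice. They were all found in a count table of 57010 genes, and all 6 were among the 19166 genes with enough counts to be tested. The genes were chosen by their levels in the knockout and FVB libraries, so those levels are given here as a description. Test results between knockout and FVB are printed only to describe that choice.

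RNA was sequenced in bulk from mouse cerebellum, and by the title of the series from its crus 1, which is part of the lateral hemisphere. The 12 libraries formed 3 groups of 4. FVB mice, an inbred strain, received saline, Fmr1 knockout mice received saline, and further Fmr1 knockout mice received poly(I:C) into the peritoneal cavity. Poly(I:C), a double-stranded RNA made in the laboratory, is used to mimic viral infection, and Fmr1 encodes an RNA-binding protein lost in fragile X syndrome. Both knockout groups carried the knockout and only 1 received poly(I:C). No FVB group with poly(I:C) was analysed here. The labels give neither age nor sex, nor do they say that the 4 samples of a group came from separate animals, so p-values measure only the spread between these samples. The sources used here do not give the knockout allele or the time from injection to sampling.

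Libraries held 35.2 to 56.4 M counts. Levels are in counts-per-million (CPM). Fmr1 was at 85.5 to 108 CPM in FVB, at 27.9 to 36.8 CPM in saline knockout libraries and at 33.9 to 36.0 CPM in treated ones, so reads of the gene remained in knockout libraries while the groups were separate. Cerebellar granule and Purkinje cell markers were abundant in every group, with summed levels of 5452 to 6157 CPM and 5883 to 7779 CPM over 7 genes each. Saline knockout 2, treated knockout 2 and treated knockout 3 stood apart, with Ttr, which encodes transthyretin and is a defining product of the choroid plexus, at 4156, 2167 and 2631 CPM against 1.63 to 65.3 CPM in the other 9. The summed level of 8 choroid plexus markers accordingly reached 6165 CPM among saline knockout and 4014 CPM among treated knockout libraries, against at most 267 CPM in FVB. In bulk samples fewer cells of a type and less RNA per cell cannot be told apart.

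The 6 genes encode proteins of different kinds. Clmp, Nectin1 and Dscaml1 encode cell-surface adhesion proteins of the immunoglobulin superfamily, which hold neighbouring cells together at junctions or guide the arrangement of neurites. Ubash3b encodes a phosphatase that dampens tyrosine kinase signalling, and Rnf26 a ubiquitin ligase of the endoplasmic reticulum membrane that acts on the innate immune adaptor STING. Nxpe4 belongs to a family related to the neurexophilins, and its role in brain is not well known. The table counts RNA and holds no DNA variants, so whether the lines differ in the DNA of this region was not tested.

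In the order of the reference annotation the genes run Clmp, Ubash3b, Nectin1, Rnf26, Dscaml1 and Nxpe4. They were not next to one another: 5, 15, 4, 49 and 21 other tested genes lay between successive members, which makes 101 tested genes from the first to the last. In both knockout groups Nxpe4, Rnf26 and Ubash3b were higher than in FVB, and Clmp, Nectin1 and Dscaml1 were lower. The 3 lower genes are the 3 adhesion genes of the 6. Other adhesion genes in or near the stretch, given below, did not all go that way, so nothing is read from this. For each of the 6 genes no FVB library overlapped either knockout group. Over all tested genes the share without overlap was 7.02% between saline knockout and FVB and 14.2% between treated knockout and FVB, and since these groups chose the genes nothing is read from that difference.

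**Figure D1:**
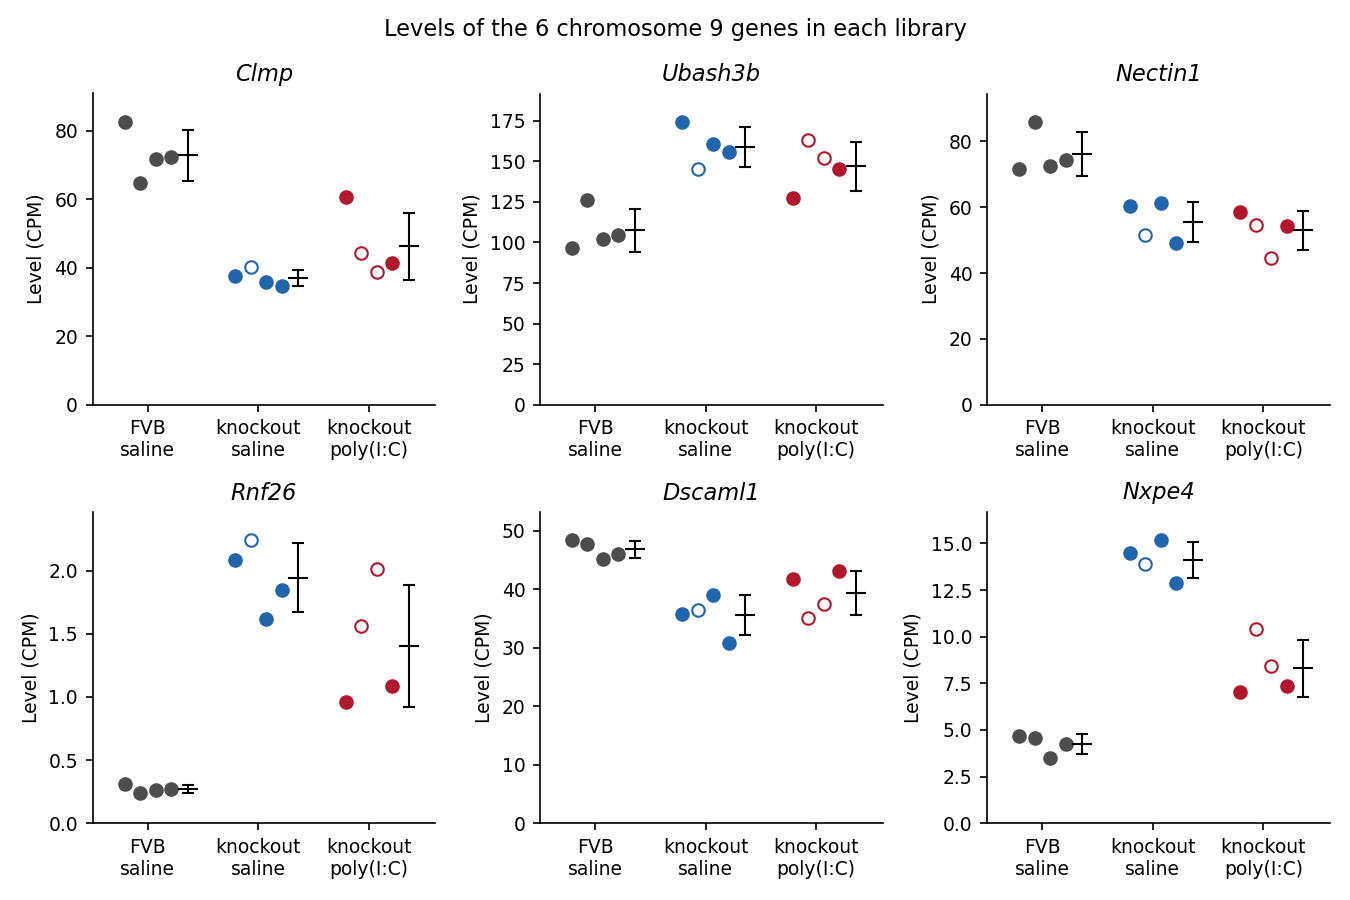
Level of each gene in CPM (linear axis from 0) in the 4 libraries of each group, with the group mean and SD beside the points. Open circles are the 3 libraries with Ttr above 1000 CPM. Nxpe4 lies lowest in FVB, highest in the saline knockout and between them in the treated knockout.

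Nxpe4 (ENSMUSG00000044229) was the member with both a wide difference between the lines and a change with poly(I:C). Its levels in FVB libraries 1 to 4 were 4.69, 4.58, 3.49 and 4.26 CPM. In the saline knockout they were 14.5, 13.9, 15.2 and 12.9 CPM. In the treated knockout they were 7.03, 10.4, 8.44 and 7.33 CPM. The 3 groups did not overlap: every treated library lay above every FVB library and below every saline knockout library. The mean was 4.26 ± 0.544 CPM (SD, n = 4) in FVB and 14.1 ± 0.965 CPM (SD, n = 4) in the saline knockout, a ratio of 3.31, and was 8.31 ± 1.54 CPM (SD, n = 4) in the treated knockout, a ratio to FVB of 1.95.

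The comparison of treated with saline knockout was not the contrast that chose the genes, although the saline knockout libraries entered both. Choosing genes by their saline knockout levels favours treated levels nearer to FVB, so p-values here are not free of that choice. On the log2 scale the treated difference from FVB was 55.1% of the saline one for Nxpe4. It was 80.8%, 69.2%, 79.6%, 114.5% and 63.5% for Rnf26, Clmp, Ubash3b, Nectin1 and Dscaml1. The log2 level of Nxpe4 fell by 0.76 (SE 0.135, 95% interval -1.05 to -0.48, adjusted p = 0.00223 in edgeR), to 58.9% of the saline knockout level. It was the 1 member of 6 called, where a call is an edgeR quasi-likelihood adjusted p under 0.05 over all tested genes, and 2.87% of all tested genes were called. It was also the 1 member whose treated and saline knockout libraries did not overlap, as for 9.75% of tested genes. Without the 3 libraries high in Ttr the difference was -0.98 (edgeR adjusted p = 0.00414), with 2 treated libraries left.

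Promoters are shown for the 3 genes with an entry, which are the 3 higher genes. These 3 of the 6 matched in a RefSeq promoter table of build GRCm38.p6, the C57BL/6J reference, which is the sequence of neither line. Each sequence is the 250 bases before an annotated start, 5′ to 3′ on the gene's strand. Capitals mark matches, on either strand, to 5 motifs. These were a TATA box with the letters TATAAA, the box named for its letters CCAAT, a GC box with the letters GGGCGG, an E-box with the letters CACGTG, and an interferon response motif with the letters GAAANNGAA followed by 1 more letter A. None of these motifs overlapped another in the sequences shown. Nxpe4 lies at chr9:48361791-48362040 on the plus strand, Ubash3b at chr9:41158063-41158312 on the minus strand and Rnf26 at chr9:44113052-44113301 on the minus strand.

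Nxpe4: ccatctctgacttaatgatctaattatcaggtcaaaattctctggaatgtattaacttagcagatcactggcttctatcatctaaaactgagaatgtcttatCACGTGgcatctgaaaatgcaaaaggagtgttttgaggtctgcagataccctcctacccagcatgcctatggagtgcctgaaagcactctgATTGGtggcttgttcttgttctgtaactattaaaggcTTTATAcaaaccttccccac
Ubash3b: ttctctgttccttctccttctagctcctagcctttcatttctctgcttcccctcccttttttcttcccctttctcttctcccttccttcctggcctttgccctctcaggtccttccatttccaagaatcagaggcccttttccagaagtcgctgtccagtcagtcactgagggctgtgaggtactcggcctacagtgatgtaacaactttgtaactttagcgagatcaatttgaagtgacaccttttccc
Rnf26: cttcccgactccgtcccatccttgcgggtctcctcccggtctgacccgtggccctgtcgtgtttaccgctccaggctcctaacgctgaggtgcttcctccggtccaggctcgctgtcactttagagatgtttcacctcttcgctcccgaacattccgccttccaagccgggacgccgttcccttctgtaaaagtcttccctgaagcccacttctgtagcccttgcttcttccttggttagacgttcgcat

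The Nxpe4 promoter held 3 matches. The E-box lay 148 to 143 bases before the start, the CCAAT box at 57 to 53 and the TATA box at 20 to 15, both of these on the other strand. Of 32851 promoter windows of the same length, 6.02% held the E-box, 33.8% the CCAAT box and 12.4% the TATA box, while the GC box was in 32.7% and the interferon response motif in 2.98%. The Ubash3b and Rnf26 windows shown held no match. A shorter form of the interferon motif, without that last letter, was searched second and was in 7.13% of windows, among them Ubash3b at 138 to 130 bases before the start. A second annotated start of Ubash3b had a CCAAT match at 120 to 116. GC content was 40.8% in Nxpe4, 48.4% in Ubash3b and 58.4% in Rnf26 against a median of 52.4%, and the 3 windows held 1, 3 and 18 CpG dinucleotides against a median of 6. A match describes these letters and is not a shown binding site.

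Rnf26 (ENSMUSG00000053128) was the member with the widest ratio between the lines and the lowest level. In FVB libraries 1 to 4 it was at 0.313, 0.239, 0.264 and 0.273 CPM, from 9 to 13 counts a library. Saline knockout libraries held 2.09, 2.24, 1.61 and 1.85 CPM. In the treated knockout it was at 0.957, 1.56, 2.02 and 1.08 CPM. All knockout libraries lay above all FVB libraries, while treated and saline knockout libraries overlapped. The mean of 0.272 ± 0.0309 CPM (SD, n = 4) in FVB compared with 1.95 ± 0.275 CPM (SD, n = 4) in the saline knockout, a ratio of 7.16, and with 1.41 ± 0.483 CPM (SD, n = 4) in the treated knockout.

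Treated against saline knockout, Rnf26 differed by -0.48 on the log2 scale (SE 0.248, 95% interval -0.997 to 0.0431, edgeR adjusted p = 0.375), which did not pass the test. The 2 highest treated libraries were the 2 high in Ttr, and without the libraries high in Ttr the difference was -0.86 (edgeR adjusted p = 0.423). The Rnf26 count itself is uncertain. In the GENCODE M21 annotation 56.6% of its exon bases lay in exons of the same-strand gene Gm49380, and 17.3% in exons of opposite-strand genes, Mfrp among them, and the sources used here do not give the strand setting of the counting. Mfrp, which encodes a frizzled-related membrane protein, was at 17.7, 16.2 and 15.9 CPM in the 3 libraries high in Ttr and between 0.0217 and 0.512 CPM in the other 9. Its part in the Rnf26 values was not tested.

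**Figure D2:**
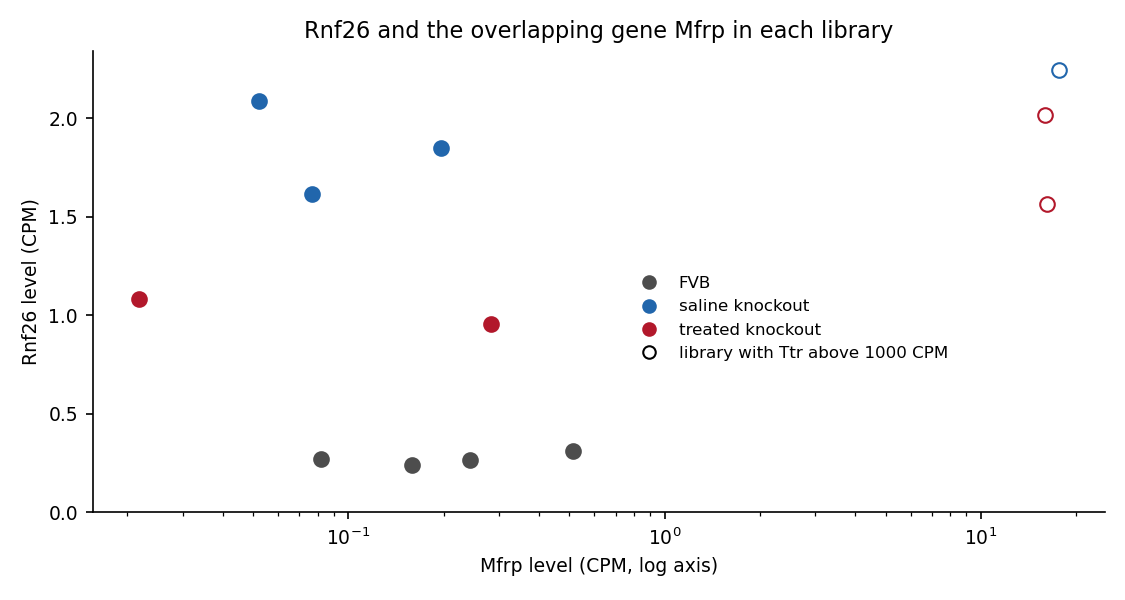
Rnf26 level (CPM, linear axis) against the level of the overlapping gene Mfrp (CPM, log axis), 1 point a library. The 3 open points at 15.9 to 17.7 CPM of Mfrp are the libraries with Ttr above 1000 CPM, and the FVB libraries lie between 0.239 and 0.313 CPM of Rnf26.

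Ubash3b (ENSMUSG00000032020) was higher in the knockout groups by a smaller ratio. In FVB libraries 1 to 4 it was at 96.4, 126, 102 and 105 CPM. Saline knockout libraries held 174, 145, 161 and 156 CPM. In the treated knockout it was at 127, 163, 152 and 145 CPM. The gap between the lines was narrow in the treated group, where the lowest library, treated knockout 1 at 127.3 CPM, lay just above FVB 2 at 126.2 CPM. Means were 107 ± 13.1, 159 ± 12.3 and 147 ± 15.1 CPM (SD, n = 4 each), or 148% and 137% of FVB in the saline and treated knockout. Treated and saline knockout overlapped and differed by -0.11 on the log2 scale (95% interval -0.30 to 0.07, edgeR adjusted p = 0.591). The difference was -0.05 without treated knockout 1, -0.07 without saline knockout 1 and -0.26 without the libraries high in Ttr, and was called in none of these. No exon bases of Ubash3b lay in exons of another gene of the GENCODE M21 annotation.

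Clmp (ENSMUSG00000032024), an adhesion protein of epithelial tight junctions, had the widest difference of the 3 lower genes. In FVB libraries 1 to 4 it was at 82.6, 64.6, 71.6 and 72.3 CPM. Saline knockout libraries held 37.5, 40.1, 35.8 and 34.6 CPM. In the treated knockout it was at 60.5, 44.3, 38.7 and 41.2 CPM. The saline knockout mean of 37.0 ± 2.39 CPM (SD, n = 4) was 50.9% of the FVB mean of 72.8 ± 7.41 CPM (SD, n = 4), and the treated mean of 46.2 ± 9.81 CPM (SD, n = 4) was 63.5%. Treated knockout 1 was well above the other 3 treated libraries. Treated against saline knockout the log2 difference was 0.32 (95% interval 0.07 to 0.57, edgeR adjusted p = 0.183), 0.16 without treated knockout 1 and 0.50 without the libraries high in Ttr, and it passed the test in none of these.

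The gene next to Clmp in the reference order is Gm16096, a noncoding transcript on the opposite strand whose exons cover 10.1% of the exon bases of Clmp. Gm16096 was at 1.39, 0.401 and 0.997 CPM in FVB, saline and treated knockout, the same order as Clmp, and it rose with treatment, with a log2 difference of 1.31 (adjusted p = 0.0361 in edgeR). That call ended in 10 of its 22 alternatives, limma-voom among them. Of single libraries, it ended without FVB 3, saline knockout 1, 3 or 4, or treated knockout 1, 2 or 3, with log2 differences of 1.18 to 1.35. It also ended, at 1.39, without the libraries high in Ttr (edgeR adjusted p = 0.229). Without a known strand setting, reads in the shared exon bases cannot be told apart. Over the 4 FVB libraries Gm16096 had 221 counts and Clmp 11519.

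Nectin1 (ENSMUSG00000032012), an adhesion protein of adherens junctions and of contacts beside synapses, was lower in both knockout groups by nearly the same amount. In FVB libraries 1 to 4 it was at 71.7, 85.9, 72.6 and 74.4 CPM. In the saline knockout it was at 60.3, 51.5, 61.2 and 49.03 CPM. In the treated knockout it was at 58.5, 54.7, 44.7 and 54.2 CPM. Means were 76.2 ± 6.61, 55.5 ± 6.15 and 53.0 ± 5.89 CPM (SD, n = 4 each), or 72.9% and 69.6% of FVB. The knockout groups overlapped, with a log2 difference of -0.06 (95% interval -0.26 to 0.13, edgeR adjusted p = 0.802), which ranged from -0.12 to 0.01 as single libraries were left out.

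Dscaml1 (ENSMUSG00000032087), a homophilic adhesion protein known for spacing neurites of the retina, had the smallest difference. In FVB libraries 1 to 4 it was at 48.4, 47.7, 45.3 and 46.0 CPM. In the saline knockout it was at 35.9, 36.4, 39.1 and 30.9 CPM. In the treated knockout it was at 41.8, 35.02, 37.6 and 43.1 CPM. Means were 46.8 ± 1.46, 35.6 ± 3.40 and 39.4 ± 3.73 CPM (SD, n = 4 each), or 75.9% and 84.1% of FVB. Treated against saline knockout the log2 difference was 0.15 (95% interval -0.02 to 0.32, edgeR adjusted p = 0.411), with overlapping groups. It was 0.09 without saline knockout 4 and 0.27 without the libraries high in Ttr, called in neither.

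Set side by side, the log2 fold changes of saline and of treated knockout against FVB, which share the FVB libraries, were 1.73 and 0.97 for Nxpe4, 2.83 and 2.35 for Rnf26, and 0.57 and 0.45 for Ubash3b. They were -0.98 and -0.65 for Clmp, -0.46 and -0.52 for Nectin1, and -0.40 and -0.25 for Dscaml1. All 6 genes were called in the saline contrast, where 1.53% of tested genes were. The contrasts with FVB chose the genes, so nothing is read from such shares. In the treated contrast 5 were called, Dscaml1 being the exception, where 7.05% of tested genes were, and 3 remained called there without the libraries high in Ttr, namely Nxpe4, Rnf26 and Nectin1. The saline contrast call of Nectin1 ended without FVB 2 or saline knockout 2, at log2 differences of -0.39 and -0.42, and that of Dscaml1 without FVB 1, at -0.38. These calls describe the choice of genes and support nothing.

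**Figure D3:**
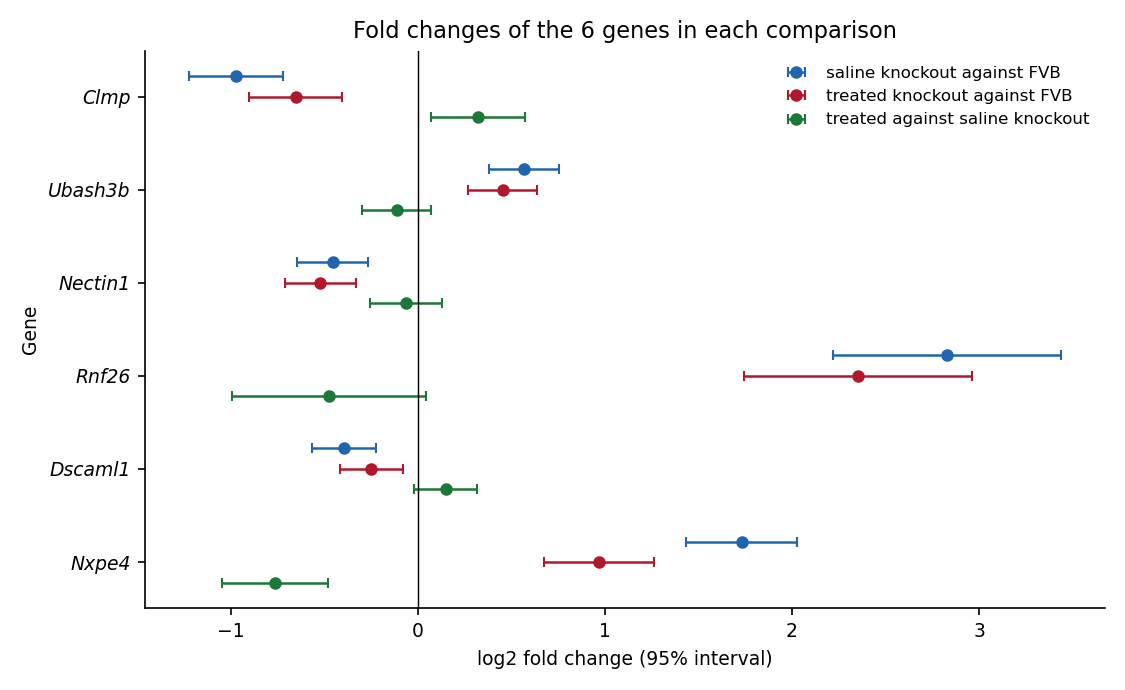
Log2 fold change of each gene in the 3 comparisons, with 95% intervals from the edgeR fit. The comparisons with FVB chose the genes, and in treated against saline knockout Nxpe4 lies at -0.76.

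Levels per kilobase of exon, which allow genes to be compared, had the order Clmp, Ubash3b, Nectin1, Dscaml1, Nxpe4 and Rnf26 in FVB. Clmp at 15.9 ± 1.61, Ubash3b at 14.7 ± 1.78 and Nectin1 at 13.5 ± 1.17 CPM per kilobase (SD, n = 4 each) did not differ beyond their spread there. Dscaml1 followed at 5.26, Nxpe4 at 0.720 and Rnf26 at 0.0747 CPM per kilobase. In the saline knockout Ubash3b led at 21.7 CPM per kilobase, ahead of Nectin1 at 9.82 and Clmp at 8.06, then Dscaml1 at 3.99, Nxpe4 at 2.39 and Rnf26 at 0.535. Nectin1 and Clmp lay close together there, at 9.82 ± 1.09 and 8.06 ± 0.521 CPM per kilobase (SD, n = 4 each). The last 3 places were the same in both groups. The exon lengths came from GENCODE M21, an older build than the one counted. The Rnf26 level per kilobase is uncertain, since 56.6% of its exon bases lay in exons of Gm49380. How reads in shared bases were counted is not known.

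Among the 101 tested genes from Clmp to Nxpe4, 11 were called between saline knockout and FVB, or 10.9%, and 5 of the 95 that are not members. The label of a block is true of the position, while the other 90 were not called, which does not show that they were equal. Without overlap between saline knockout and FVB were 16 of the 95, or 16.8%, against 7.02% of all tested genes. The share called among the 95 was 5.26%, against 1.53% of all tested genes. The stretch was marked out by genes that differ in this contrast, so nothing is read from the shares within it. The 10.9% includes the 6 listed genes, which were chosen by this contrast. Within 5 Mb of the ends of the stretch 5 of 68 tested genes were called, or 7.35%. On the rest of chromosome 9, these flanks included, 19 of 973 were called, or 1.95%. By chromosome the share ran from 0.23% on chromosome 10 to 3.53% on chromosome 1. Of the listed genes Dscaml1, with a log2 difference of -0.40, lay nearest the threshold. The nearest genes of the stretch that were not called, though with adjusted p of 0.104 and 0.109 in edgeR, were the predicted gene Gm36855 at 0.97 and Mcam, which encodes an endothelial adhesion molecule, at -0.32, both chosen after their values were seen.

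Unlisted genes of the stretch, or within 5 Mb of it, were called in both contrasts with FVB, in the same direction and without overlap, in 6 cases. With the listed genes, 169 genes were tested there. The share of all tested genes that met these terms was not computed. Both contrasts share the FVB libraries, so nothing is read from the number. Hspa8, the constitutive HSC70 chaperone, was at 1161 ± 76.5, 1852 ± 222 and 1878 ± 255 CPM (SD, n = 4 each) in FVB, saline and treated knockout. Sc5d, an enzyme of late cholesterol synthesis, was at 74.1 ± 7.99, 110 ± 5.80 and 93.6 ± 7.28 CPM (SD, n = 4 each). The long noncoding 1700063D05Rik, beside Ubash3b, was at 0.785, 3.08 and 2.46 CPM. Outside the stretch, Vsig2, a membrane protein of the Clmp family, was at 0.242, 0.963 and 0.722 CPM, Il18, an inflammatory cytokine, at 15.5, 7.65 and 9.68 CPM, and Arhgap20, a GTPase-activating protein, at 66.6, 52.4 and 53.1 CPM. Without the libraries high in Ttr, the treated knockout calls of Vsig2, Sc5d, Il18 and Arhgap20 against FVB ended, at edgeR adjusted p = 0.0878, 0.266, 0.163 and 0.0854. Their log2 differences there were 1.41, 0.25, -0.37 and -0.34, against 1.57, 0.34, -0.68 and -0.32 with all libraries. The Arhgap20 call between saline knockout and FVB ended too, at 0.0971 with a log2 difference of -0.33, and in turn without FVB 4, saline knockout 2, saline knockout 3 or saline knockout 4, at 0.0964, 0.0785, 0.0613 and 0.0611.

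Of the 12 nearest tested neighbours, 1 on each side of each member, 2 were called between saline knockout and FVB, Gm16096 beside Clmp (-1.79) and 1700063D05Rik beside Ubash3b (1.96), both in the direction of their member. Between treated knockout and FVB 2 were called, 1700063D05Rik and Cadm1, both in the direction of their member. Over all tested genes 1.53% and 7.05% were called in these 2 contrasts. The neighbours lie beside genes chosen by these contrasts, so nothing is read from their shares. Crtam, a nectin-like protein beside Ubash3b, was at 148, 148 and 155 CPM in FVB, saline and treated knockout. Usp2, a deubiquitinase beside Rnf26, was at 88.5, 104 and 99.3 CPM, and Cep164, a centriole protein beside Dscaml1, at 26.5, 26.5 and 30.3 CPM. None of these 3 was called in any of the 3 comparisons. Cadm1, a synaptic adhesion protein beside Nxpe4, was at 101 ± 8.38, 94.7 ± 5.91 and 121 ± 6.45 CPM (SD, n = 4 each) and rose with treatment, with a log2 difference of 0.35 (adjusted p = 0.00528 in edgeR), opposite in direction to Nxpe4, a call that ended without the libraries high in Ttr, where the log2 difference was 0.36 (0.108). Nxpe2, on the other side of Nxpe4 and of its own family, was at 0.180, 0.407 and 0.434 CPM. Neither knockout group overlapped FVB for Nxpe2, in the direction of Nxpe4 (log2 differences 1.19 and 1.26), and it was called in no comparison. Between saline knockout and FVB 5 of the 12 neighbours did not overlap, against 7.02% of tested genes. Of these 3 went with their member. The other 2 went the opposite way, Gm30015 beside Nectin1 (0.75) and Fxyd2 beside Dscaml1 (2.33), and neither was called. Between treated knockout and FVB 3 of the 12 did not overlap, all with their member, against 14.2% of tested genes. With treatment 4 of the 101 genes were called, or 3.96% against 2.87% of all tested genes, namely Nxpe4, Cadm1, Gm16096 and the small nucleolar RNA gene Gm24166, the last chosen after its values were seen. Without the libraries high in Ttr 1 of these calls was left, that of Nxpe4. The Gm24166 call also ended without saline knockout 1 or 2, or treated knockout 3 or 4.

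**Figure D4:**
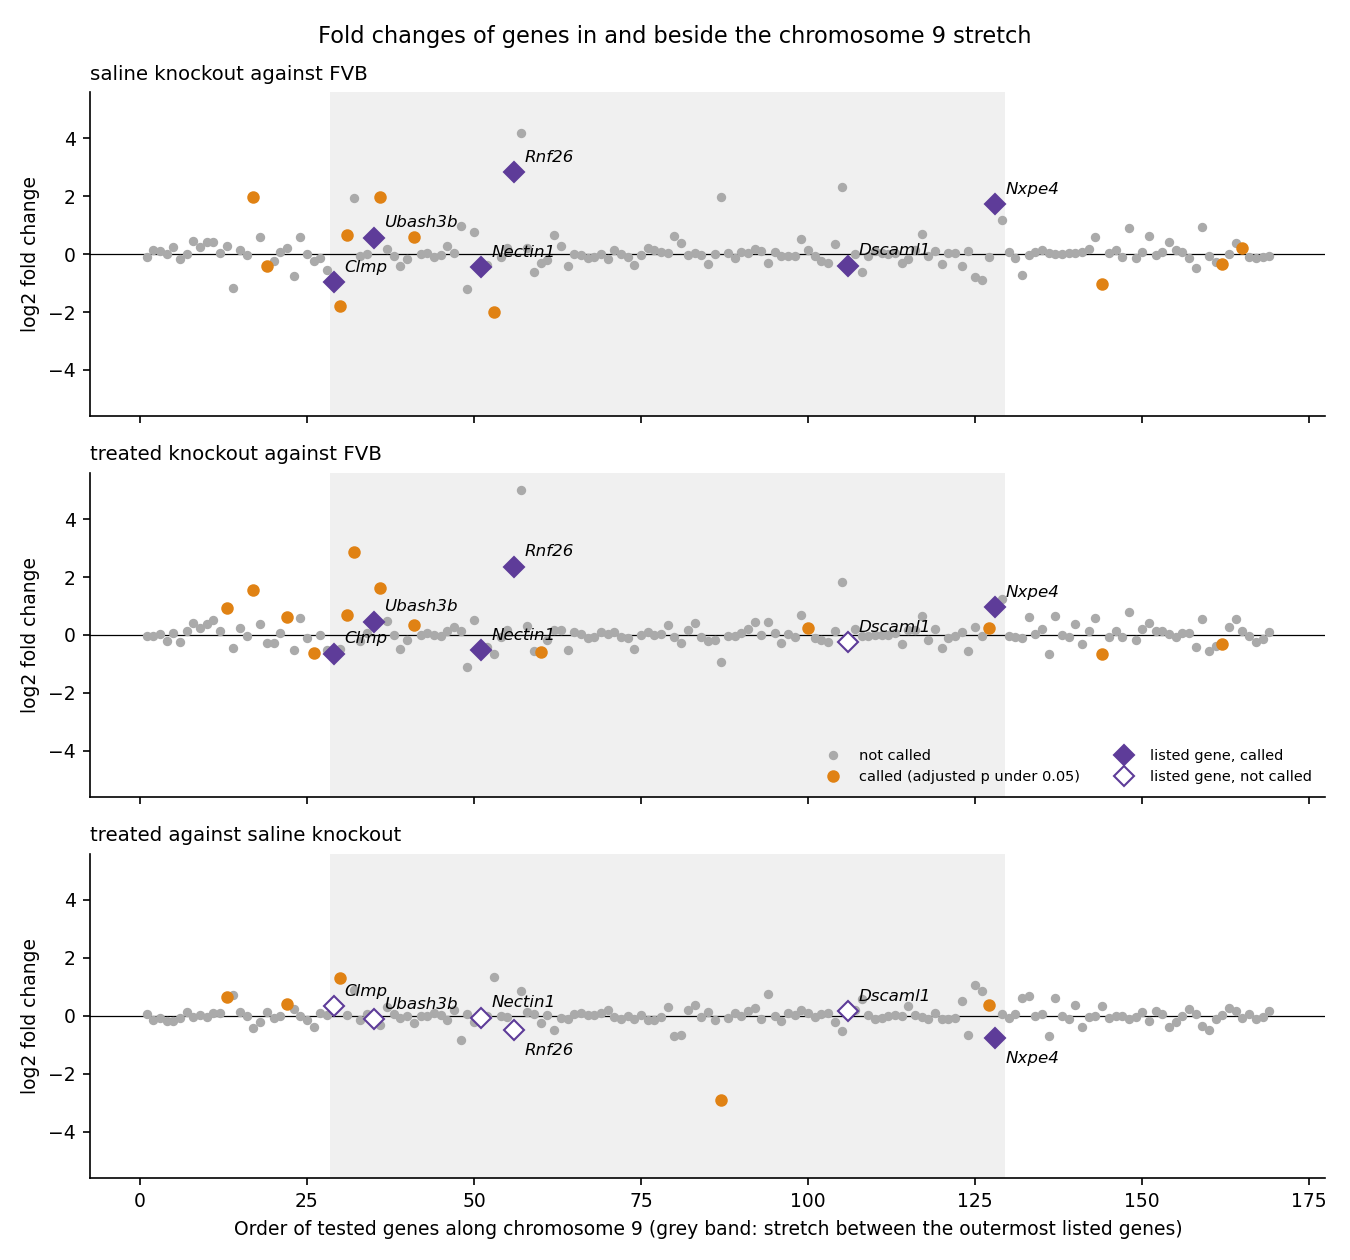
Log2 fold change of 169 tested genes in the order of the reference annotation, for the stretch (grey band) and 5 Mb on each side, in the 3 comparisons. Diamonds are the listed genes and orange points the other called genes. Called genes are interspersed with genes that were not called.

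Across the 12 libraries the genes most alike in log2 CPM were sought where the mean over libraries reached a log2 CPM of 1. These correlations are a description over libraries that share groups, so they carry no p. Nxpe4 was most alike Grk5 (Pearson r = 0.936), Atp2b4 (0.915) and Bhlhe41 (0.910), and most opposite Gdpd3 (-0.943) and Il18 (-0.923). Rnf26 was most alike Ogfrl1 (0.951), Atp2b4 (0.942) and Nxpe4 (0.934), and most opposite Gdpd3 (-0.962) and Il18 (-0.951). Ubash3b was most alike Rras2 (0.947), Grk5 (0.941) and Itgal (0.911), and most opposite Clmp (-0.940) and Gdpd3 (-0.939). Several of the same genes recur for these members, which were higher in the knockout. Gdpd3, Il18 and Rras2 recur with the opposite sign for Clmp, which was lower.

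Clmp was most alike Gabra3 (0.966), Gdpd3 (0.964) and Il18 (0.934), and most opposite Ubash3b (-0.940) and Rras2 (-0.936). Nectin1 was most alike Rims3 (0.947) and Uqcc1 (0.942), and most opposite Ints6l (-0.938) and Stac3 (-0.927). Dscaml1 was most alike Arhgef17 (0.943), Slc45a4 (0.923) and Pptc7 (0.914), and most opposite Rgs2 (-0.913) and Rdx (-0.909). Genes of chromosome 9 made up 4, 5, 5, 3, 1 and 2 of the 20 most alike for Nxpe4, Rnf26, Ubash3b, Clmp, Nectin1 and Dscaml1. Chromosome 9 held 1074 of all 19166 tested genes. Its share among the genes compared in these correlations was not computed. The members were chosen by a group difference that also enters the correlations, so nothing is read from these counts.

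Relatives of the members were taken from 6 lists of 86 genes, of which 74 were tested. Between saline knockout and FVB 2 were called, or 2.70% against 1.53% of all tested genes. Vsig2 was higher, and Nectin4, an adhesion protein of the Nectin1 family, was lower at 10.6 ± 1.82 against 15.6 ± 2.74 CPM (SD, n = 4 each), a log2 difference of -0.56 (edgeR adjusted p = 0.0452). The Nectin4 call ended in 12 of its alternatives, among them without FVB 1, 2 or 3, saline knockout 2 or 4, and treated knockout 1, 3 or 4, with adjusted p from 0.0515 to 0.154, and without the libraries high in Ttr at 0.164. Between treated knockout and FVB 11 were called, 4 higher and 7 lower, or 14.9% against 7.05% of all tested genes.

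With treatment 2 of the 74 were called, or 2.70% against 2.87% of all tested genes, both higher: Cadm1, and Trim56, a ubiquitin ligase of the STING pathway. Trim56 was at 14.2 ± 1.43, 14.9 ± 2.54 and 23.5 ± 2.51 CPM (SD, n = 4 each) in FVB, saline and treated knockout and rose, with a log2 difference of 0.66 (adjusted p = 0.00250 in edgeR), and without the libraries high in Ttr the log2 difference was 0.60, which was not called (adjusted p = 0.0655). By list, called genes were 1 of 16 nectin and nectin-like genes and 1 of 14 genes of the RNF26 and STING pathway. None was called by edgeR among 9 DSCAM and sidekick genes, 12 CTX and JAM family genes, 15 genes of UBASH3, CBL and SYK signalling and 8 NXPE and neurexophilin genes, where 2, 4, 6 and 1 had an unadjusted p under 0.05. DESeq2 called 3 of the UBASH3, CBL and SYK genes and none of the other 3 lists, and limma-voom called none of the 4. The median log2 fold change over the lists was -0.02, against 0.00 over all tested genes.

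Between saline knockout and FVB the DSCAM and sidekick, UBASH3, CBL and SYK, RNF26 and STING, and NXPE and neurexophilin lists had no edgeR call, with 1, 3, 0 and 3 genes at an unadjusted p under 0.05. DESeq2 called 1 gene in the DSCAM list and 1 in the NXPE list and none in the other 2, and limma-voom none in the 4. Between treated knockout and FVB, called genes were 3 nectin, 1 DSCAM, 1 CTX and JAM, 3 UBASH3, CBL and SYK, 1 RNF26 and STING, and 2 NXPE and neurexophilin genes. Ntn1, a guidance cue that binds DSCAM, was lower at 70.8 ± 9.77 against 105 ± 9.90 CPM (SD, n = 4 each, log2 difference -0.57). Nxpe3, a relative of Nxpe4, was lower at 27.9 ± 4.91 against 37.1 ± 1.81 CPM (SD, n = 4 each, log2 difference -0.41), where Nxpe4 was higher. Without the libraries high in Ttr 1 call was left in these lists, in the RNF26 and STING list.

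Some markers of other cells were called. Between saline knockout and FVB 3 of 6 neutrophil markers were called higher, where 1.53% of all tested genes were called. The summed level of the 6 was 3.86 to 33.2 CPM in the saline knockout against 0.769 to 1.91 CPM in FVB, without overlap. It was 2.18 to 8.74 CPM in the treated knockout, where none of the 6 was called against FVB. All 6 had counts in each group. In the saline contrast no neutrophil marker was called by limma-voom or, in edgeR, without FVB 1, 2, 3 or 4. The calls were 1 without saline knockout 2, treated knockout 2 or treated knockout 4, and 2 without saline knockout 4, without treated knockout 1 or without the libraries high in Ttr, while DESeq2 called 5. The part of these cells in the line differences of the 6 genes was not tested. In the same contrast 1 of 8 interneuron markers was called lower, and the other 13 marker lists had no edgeR call.

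With treatment a few cell type markers were called, where 2.87% of all tested genes were. Of 7 microglial markers 2 fell, as did 1 of 7 Purkinje, 1 of 7 Bergmann glia and astrocyte and 1 of 6 meningeal markers. Of 8 endothelial and mural markers 1 rose. The remaining marker lists had no edgeR call with treatment. Whether these calls hold without the libraries high in Ttr was not examined. Summed microglial markers ranged from 108 to 133 CPM among saline and from 100 to 127 CPM among treated knockout libraries. Their part in the fall of Nxpe4 was not tested.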

How the data were processed

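The authors deposited raw read counts, 1 whole number per Ensembl gene and library, for 57010 genes and 12 libraries. Per the submitters' processing notes Trim Galore, HISAT2, featureCounts and build GRCm39 were used. The sources used here give no versions, strand setting, annotation release or treatment of reads that match several places. Per the labels' protocols RNA was extracted with TRIzol and made into TruSeq libraries. Groups and replicate numbers came from the labels.

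Symbols, gene order, exon lengths and overlaps came from GENCODE M21, which annotates GRCm38, and no coordinate of it is printed except those of the RefSeq promoters. Counts were filtered with filterByExpr (minimum count 10, minimum total 15), scaled by TMM and fitted with edgeR 4.0.16 in R 4.3.3 by robust quasi-likelihood on the means of 3 groups (9 residual degrees of freedom), with Benjamini-Hochberg adjustment over 19166 genes. Each SE was derived from the log2 fold change and its F statistic. CPM uses TMM-scaled totals. A fit without libraries with Ttr above 1000 CPM was chosen after seeing the data. Tests ran on simulated counts first. DESeq2 1.42.0, limma-voom (limma 3.58.1), other scalings and filters, a replicate block and leaving out each library were alternatives.

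The members and lists were chosen with earlier results of these data known. Named genes are the members, their nearest tested neighbours, unlisted stretch or nearby genes called in both contrasts with FVB without overlap, the 3 most alike and up to 2 most opposite genes of each member, up to 3 called relatives per list, Fmr1 and Ttr. A gene that this rule names is not reported here. The 15 marker lists are given only where they bear on a result.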

Additional observations from a re-analysis of the deposited data

How the results depend on the processing

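Nxpe4 stayed called in treated against saline knockout under each of its 22 alternatives, with log2 fold changes from -0.98 to -0.69 and adjusted p of at most 0.0117. In the contrasts with FVB all 6 members kept their sign in every fit. The sign of Nectin1 with treatment, which was not called, turned to 0.01 without treated knockout 3.

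Requiring a log2 fold change of at least 1 left 0 members called with treatment. It left 5, 3 and 2 stretch genes in saline knockout against FVB, treated knockout against FVB and treated against saline knockout, and 128, 439 and 250 of all genes, against 294, 1352 and 550. Of relatives it left 1 in the saline contrast and 0 with treatment. At an adjusted p under 0.1, all genes called were 494, 2123 and 917, and 4 relatives were called with treatment. DESeq2 called 633 genes in the saline contrast and 986 with treatment, and 4 and 5 relatives. With no low-count filter 506 genes and 4 relatives were called in the saline contrast. There limma-voom and the fit without robust estimation called 1 relative each.

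Without the 3 libraries high in Ttr, stretch calls were 6 in treated knockout against FVB and 1 with treatment, all genes called were 556 and 215, and relatives called were 1 in the saline contrast and 0 with treatment. Leaving out 1 library at a time gave 156 to 300, 791 to 1542 and 347 to 689 genes called, 2 to 4 stretch genes with treatment and 1 to 2 relatives in the saline contrast. Some of these alternatives also held fewer samples or other genes, and the cause of the changes was not tested.

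Same-numbered libraries did not deviate together (r from -0.0987 to 0.145), so the numbers only name samples. With the replicate block 274, 1322 and 563 genes were called, Nxpe4 differed by -0.77, and the Gm16096 call with treatment ended (1.29, edgeR adjusted p = 0.0633). Rnf26 had 9 to 13 counts per FVB library, which limits its ratio.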
